A study of Mus musculus with 20 samples.

Results

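AP-1 is a transcription factor built from pairs of leucine-zipper proteins, and 8 of its genes were followed in newly made RNA of mouse embryonic stem cells: Jun, Junb and Jund of the Jun family, Fos, Fosb, Fosl1 and Fosl2 of the Fos family, and Atf3. They were chosen by gene name from a table of 22556 genes, in which each of the 8 names had a row. Of the 8, 5 (Jun, Junb, Jund, Fos and Fosl1) exceeded 1 read per kb of gene in 1 or more conditions, as did 8773 of the 22556 genes, and Fos did so only after 5 h of DRB. Atf3, at 0.997 reads per kb without drug, lay just below that limit, and Fosl2 and Fosb peaked at 0.796 and 0.410 reads per kb.

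Wild-type E14 embryonic stem cells, cultured in serum with leukemia inhibitory factor on gelatin, were left without drug (0 h), treated with 100 µM DRB for 2 h or 5 h, or treated with 10 µM triptolide for 1 h or 2 h. DRB inhibits the kinase that lets RNA polymerase II leave the promoter-proximal region, and triptolide blocks transcription initiation by acting on a TFIIH subunit. Cells of each condition received 150 µM 4-thiouridine for 10 min, so that RNA made in that window could be captured and sequenced, or no label as a background control. The 20 samples form 10 groups of 2 biological replicates, and the deposited table holds 1 background-subtracted column per condition, in reads per kb of gene with negative values set to 0. A vehicle for the undrugged cells is not given in the sources used here.

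Because each condition has 1 column, no value below has a replicate error and no difference has a test. Each value in reads per kb was turned back into a whole number of net reads, that is, reads left after background subtraction, and brackets give exact 95% intervals that cover counting error only and leave out the spread between replicates and the subtraction. Net reads summed over all genes came to 1248981 in the undrugged column, 334326 (26.8%) and 95088 (7.61%) in the DRB columns and 76347 (6.11%) and 62735 (5.02%) in the triptolide columns, from the earlier to the later time. Whether columns were scaled to each other is not given in the sources used here, so a column's depth and the amount of RNA made cannot be told apart, and neither can fewer transcribing cells and less RNA per cell. The stem cell label was checked on 8 markers, of which 8 exceeded 1 read per kb without drug, Pou5f1 at 62.5 and Sox2 at 69.6. Of 10 fibroblast and feeder markers 5 were listed at 0 without drug, Col1a2 and Col3a1 among them, and the list summed to 7.09 reads per kb, led by Vim at 5.96, whereas 8 primitive endoderm markers summed to 1.44 reads per kb. Of 8 neural markers, 2 were at 0 and the sum was 19.3 reads per kb, led by Tubb3 at 11.1.

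Jun proteins bind DNA as pairs with each other or with a Fos or ATF partner, whereas Fos proteins need a Jun partner. Their genes are best known as immediate early genes, switched on within minutes of growth factor, serum or stress signalling without new protein synthesis, and their RNAs are short-lived. Junb and Jund proteins are known to act in part against Jun, Fosl1 (Fra-1) and Fosl2 (Fra-2) lack the strong activating region of Fos, and Atf3 is a stress-induced factor that often represses.

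Positions on GRCm38 are from GENCODE M21, unless RefSeq is named. Jun lies on the minus strand of chromosome 4 (95049034 to 95052222) and Jund on the plus strand of chromosome 8 (70698949 to 70700616), and both have a single exon. Junb lies on the minus strand of chromosome 8 and was measured over its RefSeq span (84976909 to 84978748), as was Jund (70697739 to 70700616). Fos is on the plus strand of chromosome 12 (85473890 to 85477273) and Fosb on the minus strand of chromosome 7 (19302696 to 19310051). Fosl1 is on the plus strand of chromosome 19 (5447547 to 5455946), Fosl2 on the plus strand of chromosome 5 (32135801 to 32157842) and Atf3 on the minus strand of chromosome 1 (191170296 to 191218039). Gene bodies, introns included, were counted, so the lengths behind the values ran from 1839 bases in Junb to 21359 in Fosl2.

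The 60 bases of coding sequence found most alike among the 3 Jun genes, searched without gaps, show how close these genes come at their closest. This bears on whether reads could be assigned to 1 of them. In the 60 bases below, from single-exon reading frames in the reference genome, capitals mark positions where the 3 genes are not alike.
Jun (chr4:95050413-95050472, minus strand): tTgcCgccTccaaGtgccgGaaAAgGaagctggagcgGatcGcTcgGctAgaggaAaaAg
Junb (chr8:84977541-84977600, minus strand): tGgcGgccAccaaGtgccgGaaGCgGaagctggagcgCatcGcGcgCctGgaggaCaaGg
Jund (chr8:70699878-70699937, plus strand): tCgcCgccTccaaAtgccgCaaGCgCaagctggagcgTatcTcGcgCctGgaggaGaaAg
In this stretch 45 positions were alike in all 3 genes and 15 were not, and the longest unbroken match was 13 bases, between Jun and Junb and again between Junb and Jund. Over the annotated transcripts, no 30-base word was shared between any of the 8 members. Words were shared with genes on the opposite strand: 50.2% of Jund's with Gm11175, 54.6% of Fosl1's with Ccdc85b, 6.42% of Jun's with Junos and 6.55% of Junb's with Prdx2. The use of strand in counting is not given in the sources used here, so reads of Jund and Fosl1 cannot be told apart from those of their antisense partners over these stretches.

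The upstream sequences of Junb, Fos and Fosl2 are shown because these 3 members stand out after 2 h of DRB, after 5 h of DRB and after triptolide. Each is the 250 bases before the RefSeq start on GRCm38.p6, read along the gene, with motif matches in capitals.
Junb (chr8:84978749-84978998, minus strand): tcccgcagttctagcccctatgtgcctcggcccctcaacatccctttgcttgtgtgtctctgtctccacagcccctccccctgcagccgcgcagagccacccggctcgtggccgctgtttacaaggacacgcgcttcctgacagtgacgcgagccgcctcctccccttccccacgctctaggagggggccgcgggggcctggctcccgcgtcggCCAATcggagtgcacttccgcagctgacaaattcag
Fos (chr12:85473640-85473889, plus strand): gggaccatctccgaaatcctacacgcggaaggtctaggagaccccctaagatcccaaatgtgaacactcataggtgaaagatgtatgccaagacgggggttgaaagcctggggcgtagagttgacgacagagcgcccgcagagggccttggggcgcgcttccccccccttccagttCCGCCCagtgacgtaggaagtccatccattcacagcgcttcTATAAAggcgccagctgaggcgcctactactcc
Fosl2 (chr5:32136222-32136471, plus strand): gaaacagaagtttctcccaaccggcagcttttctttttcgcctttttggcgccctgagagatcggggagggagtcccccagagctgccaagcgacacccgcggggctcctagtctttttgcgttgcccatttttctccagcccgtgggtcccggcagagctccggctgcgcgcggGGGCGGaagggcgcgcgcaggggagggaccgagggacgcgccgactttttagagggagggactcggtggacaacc
Searched on both strands were the AP-1 element TGACTCA, the cAMP response element TGACGTCA, the TATA box TATAAA, the CCAAT box CCAAT, the GC box GGGCGG, the STAT element TTCNNNGAA and the CArG box. No searched motif overlapped another in the 3 windows. Junb held a CCAAT box whose first base lies 36 bases before the start, a motif found in 34.5% of 27025 promoters. Fos held a TATA box 33 bases and a GC box 74 bases before the start, motifs found in 13.0% and 32.9% of promoters. Fosl2 held a GC box at 75 bases. The promoter table matched 7 of the 8 members. Of the others, Jun held a CCAAT box and a GC box, Fosb 3 and Atf3 5 GC boxes, and Jund no searched motif. For Jund, Fosl2 and Atf3 the GENCODE M21 start lies more than 250 bases from the RefSeq start. Sequence just before that GENCODE start was therefore not searched. The AP-1, cAMP response, STAT and CArG letters were in none of the 7 windows, and in 4.43%, 1.62%, 7.18% and 1.40% of all promoters. Elements farther than 250 bases before the RefSeq start were not searched. These matches are descriptions of letters and say nothing of binding.

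Without drug, Junb had the highest level of the 8 genes and Fosb was listed at 0. In reads per kb, Junb was at 13.1 (8.36 to 19.4), Fosl1 at 8.01 (6.19 to 10.2), Jund at 5.56 (3.18 to 9.03) and Jun at 2.20 (0.883 to 4.52). Atf3 followed at 0.997 (0.531 to 1.70), Fosl2 at 0.796 (0.464 to 1.27) and Fos at 0.296 (0.00748 to 1.65). Intervals of neighbours in this order overlapped throughout, whereas those of some genes farther apart, such as Junb and Jun or Fosl1 and Atf3, did not. Overlap alone does not show that neighbours were alike, and ratios between genes within a column were not computed. Junb ranked 1047th of 22556 genes and Fosl1 1926th, whereas Fos, the namesake of its family, ranked 11346th on 1 net read. The intervals of Atf3 and Jun also overlapped, so the limit of 1 read per kb does not divide the genes at a gap.

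**Figure D1:**
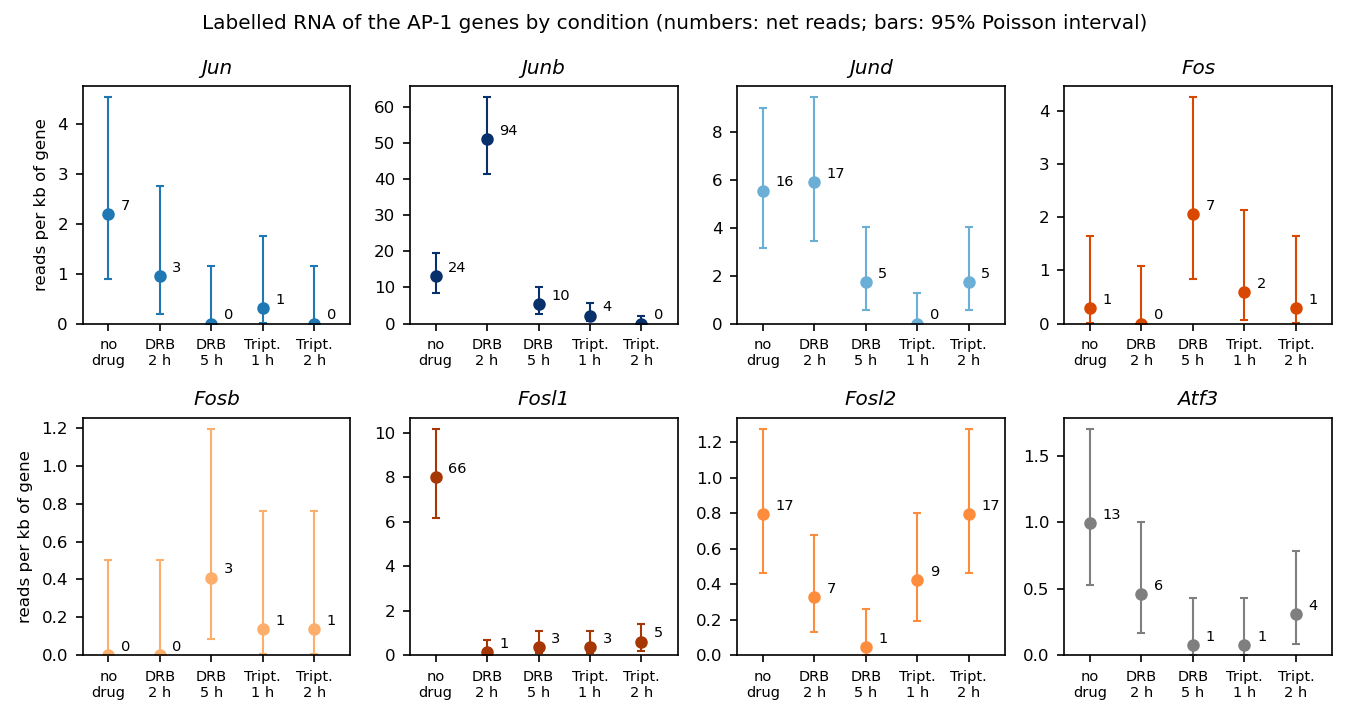
Level of each AP-1 gene in labelled RNA (reads per kb of gene, linear axis from 0, own scale per panel) in the 5 conditions, 1 column each, with exact 95% Poisson intervals and the net read number beside each point. Junb peaks at 94 reads after 2 h of DRB, Fos at 7 reads after 5 h of DRB, and Fosl1 at 66 reads without drug.

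After 2 h of DRB, Junb stood out among the AP-1 genes because it was higher than without drug, while Fosl1 nearly vanished from the labelled RNA. Junb, a growth factor-induced Jun protein, had 94 net reads against 24, or 51.1 against 13.1 reads per kb, and the ratio was 3.92 (2.48 to 6.41). On the scale log2(value + 1), used for all differences and understating those of low genes, this was 1.89, a difference reached or passed by 68 of 8773 genes, and it was 3.05 to 3.77 on rescaled columns. It ranked 33rd of 22556 genes in this column. The direction held for few genes: 193 of 8773, or 2.20%, were higher by at least 1 log2 unit, the size rule used throughout, and 66.1% were lower. The median gene with signal without drug kept 20.0%.

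Jund, the Jun protein known for steady expression, had 17 net reads against 16, or 5.91 against 5.56 reads per kb, and the ratio was 1.06 (0.505 to 2.25). Jund was therefore level with the undrugged column as deposited and higher by 1.35 to 1.81 log2 units once the columns were rescaled. Jun, the founding member, had 3 reads against 7, or 0.941 against 2.20 reads per kb, at 42.9% (7.15 to 188). Its interval covers both a rise and a fall, and its log2 difference of -0.72 became 0.36 to 0.50 on rescaled columns.

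In the Fos family no member was higher after 2 h of DRB as deposited. Fosl1 had 1 net read against 66, or 0.121 against 8.01 reads per kb, at 1.52% (0.0378 to 8.74), a log2 difference of -3.01 that stayed between -2.69 and -1.53 on rescaled columns. Only 239 of 8773 genes were as low or lower. The overlapping Ccdc85b, a gene on the opposite strand, had 70 net reads without drug and 0 in each of the 4 drug columns. Its part in the Fosl1 values was not tested. Fosl2 had 7 reads against 17, at 41.2% (14.4 to 104), and its log2 difference of -0.44 became 0.21 to 0.31 on rescaled columns. Fos was listed at 0 against 1 read, and Fosb at 0 in both. Atf3 had 6 reads against 13, at 46.2% (14.4 to 130), with -0.45 log2 units as deposited and 0.32 to 0.45 on rescaled columns. By the size rule 1 of the 5 members above the limit was lower and 1 higher.

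Compared member by member, some changes after 2 h of DRB were unequal by more than counting error. Such ratios do not depend on multiplying whole columns. Junb's ratio was 3.69 times (1.49 to 8.99) that of Jund, 9.14 times (1.87 to 57.5) that of Jun, 9.51 times (3.24 to 29.8) that of Fosl2 and 8.49 times (2.63 to 29.6) that of Atf3. Against Fosl1 it was 258.5 times, with a lower bound of 39.1. Jund's ratio, too, exceeded that of Fosl1, by 70.1 times (9.19 to 2972). Fosl2 and Atf3 could not be separated, with a ratio of ratios of 0.892 (0.200 to 4.09). Neither could Fosl2 and Jund, at 0.388 (0.107 to 1.33), Fosl2 and Jun, at 0.961 (0.154 to 7.44), or Jund and Jun, at 2.48 (0.454 to 17.1). Summed, the Jun family had 114 net reads against 47, at 243% (171 to 348), and the Fos family 8 against 84, at 9.52% (3.98 to 19.6), beside 26.8% for all genes. Both sums follow 1 member: all 8 genes together were at 88.9% (69.5 to 114), at 28.3% without Junb and at 163% without Fosl1.

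**Figure D2:**
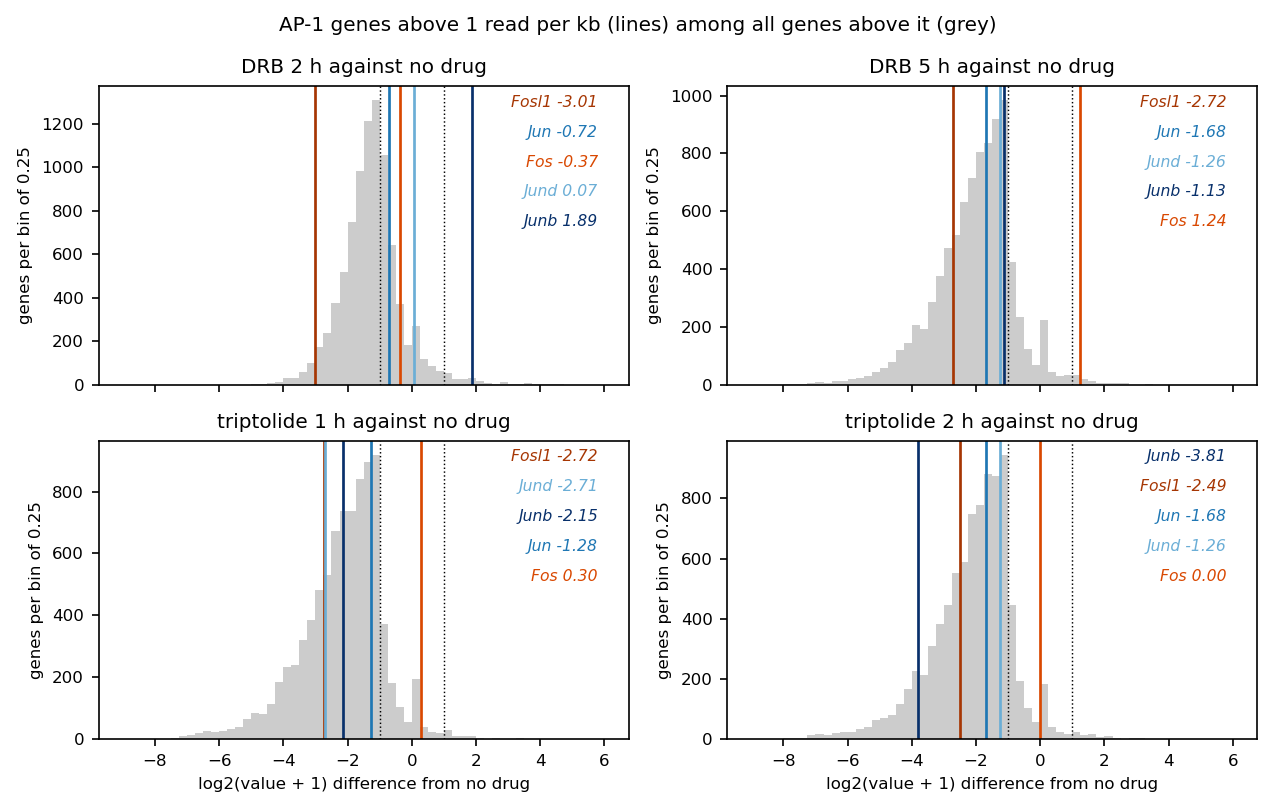
Histograms of the log2(value + 1) difference from no drug (bins of 0.25) over the 8773 genes that exceeded 1 read per kb in some condition, with the 5 AP-1 genes above that limit as coloured lines and the size rule of 1 as dotted lines. After 2 h of DRB Junb lies at 1.89, to the right of most genes, and Fosl1 at -3.01, to the left of most.

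After 5 h of DRB, Junb was below its undrugged level and Fos was above its own. Junb had 10 net reads against 24, or 5.44 against 13.1 reads per kb, at 41.7% (17.8 to 90.4), which was -1.13 log2 units as deposited and turned to 1.51 to 2.37 higher on rescaled columns. Over all genes 85.5% were lower by the size rule and 1.03% higher, and 4 of the 5 members above the limit were lower and 1 higher. The higher one was Fos, which had 7 reads against 1, or 2.07 against 0.296 reads per kb, and the ratio was 7 (0.899 to 315). Its log2 difference of 1.24, reached or passed by 57 of 8773 genes, was 3.07 to 4.44 on rescaled columns. The interval of the ratio includes 1, and Fos passed the limit of 1 read per kb only through this column, so its place among higher genes is a description. Fosb, the closest relative of Fos, had 3 reads against 0, or 0.410 reads per kb, and 1 read in each triptolide column. The intervals of these read numbers overlap.

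Jund had 5 net reads against 16 after 5 h of DRB, or 1.74 against 5.56 reads per kb, at 31.3% (8.95 to 89.3), which was -1.26 as deposited and 1.04 to 1.86 on rescaled columns. Jun was listed at 0 against 7 reads. Fosl1 had 3 reads against 66, at 4.55% (0.914 to 13.9) and -2.72 log2 units, and stayed negative on each rescaling, at -1.32 to -0.28. Fosl2 and Atf3 had 1 read each against 17 and 13, at 5.88% (0.141 to 37.5) and 7.69% (0.181 to 51.2). Between members, Fos's ratio to no drug was 16.8 times (1.67 to 788) that of Junb. Junb's ratio was 9.17 times (2.07 to 54.8) and Jund's 6.88 times (1.16 to 47.6) that of Fosl1. The Jun family, at 31.9% (16.6 to 58.1), and the Fos family, at 16.7% (8.74 to 29.5), differed by 1.91 times (0.783 to 4.68), which counting error covers.

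Within DRB, Junb went from 94 net reads at 2 h to 10 at 5 h, at 10.6% (4.94 to 20.4) and -3.02 log2 units, and 270 of 8773 genes were as low or lower. Jund went from 17 to 5 reads, at 29.4% (8.48 to 83.1) and -1.34 log2 units, which became 0.046 and 0.24 with equal sums and equal quantiles. Fos went the other way, from 0 to 7 reads, a log2 difference of 1.62 that 28 genes reached or passed. Fos passed the limit of 1 read per kb only through the 5 h column, so its rank and its count as higher are descriptions. Of the 5 members above the limit 2 were lower and 1 higher, beside 29.7% lower and 1.13% higher of all genes. The Jun family was at 13.2% (7.13 to 22.6) of its 2 h reads and the Fos family at 175% (68.5 to 481), so the Jun family's ratio was 0.0752 times (0.0236 to 0.234) that of the Fos family. Junb held 94 of the Jun family's 114 reads at 2 h, and Fos 7 of the Fos family's 14 at 5 h. All members without Junb were at 58.8% (32.1 to 105).

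Triptolide for 1 h left 21 net reads in the AP-1 genes, of which Fosl2 had 9, more than any other member. Junb had 4 net reads against 24, or 2.18 against 13.1 reads per kb, at 16.7% (4.20 to 48.5), which was -2.15 log2 units as deposited and 0.78 to 1.91 on rescaled columns. Jund was listed at 0 against 16 reads, and Jun had 1 against 7, at 14.3% (0.317 to 111) and -1.28 log2 units, or 0.44 to 1.02 on rescaled columns. Over all genes 87.9% were lower and 0.787% higher, and 4 of the 5 members above the limit were lower and 0 higher. In the Fos family, Fosl1 had 3 reads against 66, at 4.55% (0.914 to 13.9), -2.72 log2 units as deposited and between -0.89 and 0.094 on rescaled columns. Fosl2 had 9 reads against 17, or 0.421 against 0.796 reads per kb, at 52.9% (20.8 to 126), or -0.34 log2 units as deposited and 1.61 to 2.14 on rescaled columns. It kept 11.6 times (2.47 to 71.6) the proportion that Fosl1 kept. Fos had 2 reads against 1, Fosb 1 against 0 and Atf3 1 against 13.

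After 2 h of triptolide, Junb was listed at 0 and Fosl2 had as many net reads as without drug. Fosl2, which has the longest counted span of the 8 genes, had 17 reads in both columns, or 0.796 reads per kb, so the ratio was 1 (0.480 to 2.08). The median gene above 1 read per kb in some condition, with signal without drug, kept 0.482%, but Fosl2 lay below that limit. Fosl2's ratio was 13.2 times (3.85 to 50.9) that of Fosl1, but 3.20 times (0.844 to 13.5) that of Jund and 3.25 times (0.771 to 16.2) that of Atf3, which counting error covers. Junb had 0 reads against 24, a log2 difference of -3.81, and Jun 0 against 7. Jund had 5 reads against 16, or 1.74 against 5.56 reads per kb, at 31.3% (8.95 to 89.3), which was -1.26 as deposited and 1.56 to 2.44 on rescaled columns. Atf3 had 4 reads against 13, at 30.8% (7.31 to 99.6), or -0.61 as deposited and 1.09 to 1.83 on rescaled columns. Fosl1 had 5 reads against 66, at 7.58% (2.38 to 18.6), or -2.49 as deposited, -0.28 with equal medians, 0.54 with equal sums and 0.51 with equal quantiles. Fos had 1 read in both columns and Fosb 1 against 0. By the size rule 4 of the 5 members above the limit were lower and 0 higher, beside 87.0% lower and 0.866% higher of all genes.

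Between 1 h and 2 h of triptolide, Junb went from 4 net reads to 0, Jund from 0 to 5, Fosl2 from 9 to 17, a ratio of 1.89 (0.796 to 4.81), and Atf3 from 1 to 4. By the size rule 1 member, Junb, was lower and 1, Jund, was higher, beside 3.03% lower and 3.35% higher of all genes. These are small numbers, and the Jun family summed to 5 reads at both times. The Fos family had 15 reads and then 24, at 160% (80.6 to 328), an interval that includes no change.

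At 2 h, the only time shared by both drugs, which were given at 100 µM and 10 µM, Junb had 94 net reads with DRB and 0 with triptolide. The log2 difference was 5.70, and 21 of 8773 genes reached or passed it. Jund had 17 reads with DRB and 5 with triptolide, a ratio of 3.40 (1.20 to 11.8) and 1.34 log2 units, which turned to -0.63 and -0.91 with equal sums and equal quantiles. Fosl2 went the other way, with 7 reads against 17, a ratio of 0.412 (0.144 to 1.04), so that its ratio was 0.121 times (0.0255 to 0.537) that of Jund. Fosl1 had 1 read against 5, Atf3 6 against 4, Jun 3 against 0, and Fos and Fosb 0 against 1 each. Of the 5 members above the limit 0 were lower with DRB and 2, Junb and Jund, were higher, beside 1.04% and 33.2% of all genes. Taken as families, Jun genes had 114 reads against 5 and Fos genes 8 against 24, and the ratio of these ratios was 68.4 (18.3 to 278). Junb alone held 94 of the 114 reads. Without Junb, the other members together had 34 reads against 33, at 103% (61.9 to 172).

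Each gene's part of a column's net reads was also compared, which amounts to scaling the columns to equal sums and moves with all other genes. These odds ratios restate the read ratios, multiplied by about 3.74 and 13.1 for DRB and 16.4 and 19.9 for triptolide. With 2 h of DRB, Junb made up 28.1 of every 100000 net reads against 1.92 without drug, an odds ratio of 14.6 (9.27 to 24.0). Jund's odds ratio was 3.97 (1.89 to 8.40) and Fosl1's 0.0566 (0.00141 to 0.327), while those of Jun, Fosl2 and Atf3, from 1.54 to 1.72, had intervals that include 1. With 5 h of DRB, Junb was at 5.47 (2.34 to 11.9), Jund at 4.10 (1.18 to 11.7) and Fos at 92.0 (11.8 to 4144), the last resting on 1 undrugged read. With triptolide, Fosl2 was at 8.66 (3.40 to 20.5) after 1 h and 19.9 (9.56 to 41.5) after 2 h, and Jund and Atf3 were at 6.22 (1.78 to 17.8) and 6.13 (1.46 to 19.8) after 2 h. Fosl1's odds ratio was 1.51 (0.474 to 3.70) after 2 h of triptolide, so its 5 reads were about the part it held without drug, within counting error.

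**Figure D3:**
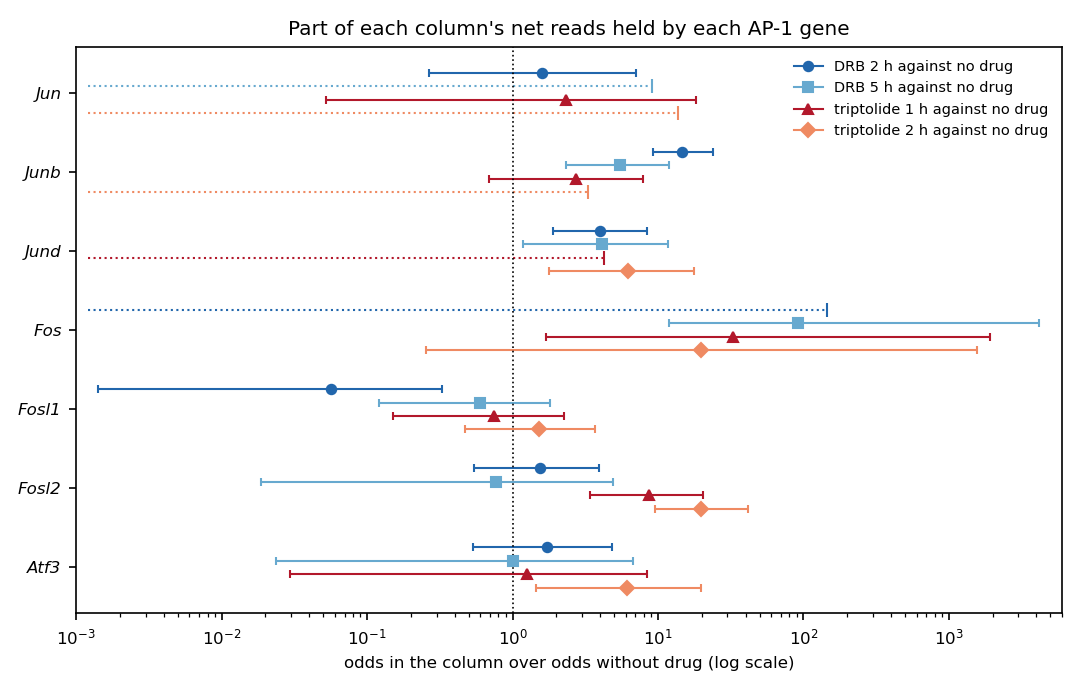
Odds of a net read belonging to each AP-1 gene in each drug column, divided by the odds without drug (log axis), with exact 95% intervals; a dotted line ending in a tick marks the upper bound for a gene listed at 0, and Fosb, at 0 without drug, is left out. Junb at 2 h of DRB (14.6) and Fosl2 at 2 h of triptolide (19.9) lie right of 1, and Fosl1 at 2 h of DRB (0.0566) left of it. The odds amount to columns scaled to equal sums, and Fosl2 had 17 net reads both without drug and at 2 h of triptolide.

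In net reads, which favour long genes, different AP-1 genes led in different conditions. Without drug the 8 genes had 144 net reads, of which Fosl1 held 45.8% (37.5 to 54.3) and Junb 16.7% (11.0 to 23.8). With 2 h of DRB they had 128, of which Junb held 73.4% (64.9 to 80.9) and Fosl1 0.781% (0.0198 to 4.28). With 5 h of DRB they had 30, with 33.3% (17.3 to 52.8) in Junb and 23.3% (9.93 to 42.3) in Fos. With triptolide, Fosl2 held 42.9% (21.8 to 66.0) of 21 reads after 1 h and 51.5% (33.5 to 69.2) of 33 after 2 h. By family, the Jun genes held 32.6% (25.1 to 40.9) without drug and 89.1% (82.3 to 93.9) with 2 h of DRB, then 50% (31.3 to 68.7), 23.8% (8.22 to 47.2) and 15.2% (5.11 to 31.9) in the order of the columns. Per kb of gene, which gives the short Jun genes more weight, the leads of Fosl1 and Fosl2 were lost. Junb then led without drug, with 42.2% against 25.9% for Fosl1, with DRB at 86.8% and 53.6%, and with 1 h of triptolide at 53.3% against 10.3% for Fosl2. Jund led with 2 h of triptolide, at 44.8% against 20.5% for Fosl2. On that scale the Jun family held 67.3% without drug, 98.5% and 70.8% with DRB and 61.0% and 44.8% with triptolide.

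**Figure D4:**
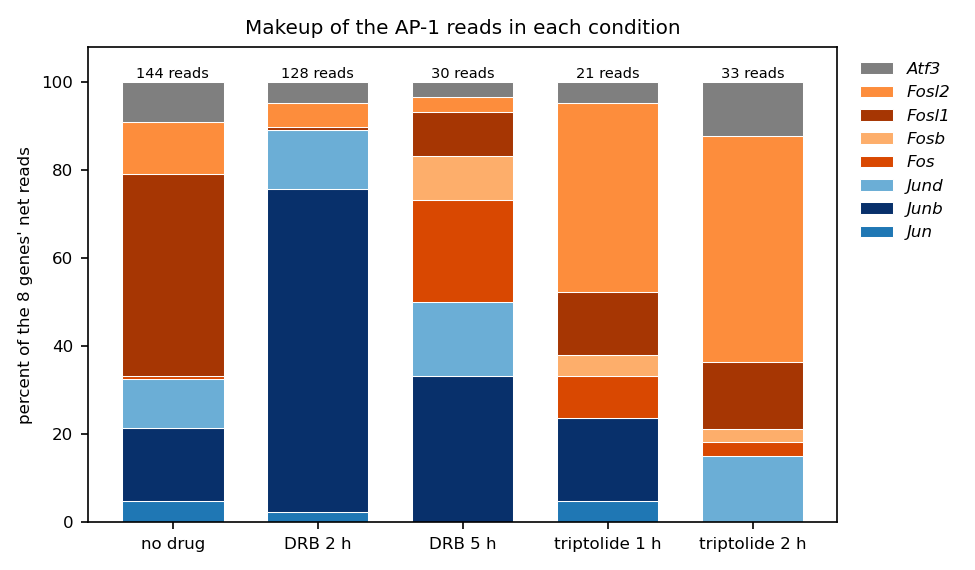
Stacked bars of the percent of the 8 genes' net reads held by each gene in each condition, with the number of reads above each bar. In these read numbers, not divided by gene length, Fosl1 is the largest block without drug (45.8%), Junb with 2 h of DRB (73.4%) and Fosl2 with 2 h of triptolide (51.5%).

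Junb's length was set beside other genes of its size, a comparison added after its values were seen. Among genes with at least 20 net reads without drug, 102 were shorter than 2 kb, and after 2 h of DRB their median was 35.8% of no drug, against 21.2% for 523 genes of 2 to 5 kb and 18.0% for 397 genes of 100 kb and over. Of the 102 short genes, 18 were at or above their undrugged reads and 1, Junb itself, reached its ratio. Of 7033 such genes of any length, 3 reached it, Junb included.

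The genes whose 5-column pattern was most like that of Junb, among 7032 genes with at least 20 net reads without drug, were Rab19, Slc17a9 and Ccdc84. Likeness was the root mean square distance of the 4 log2 differences from no drug, which was 0.708, 0.862 and 0.888. Rab19 had 68 net reads without drug, 159 and 27 with DRB and 5 and 3 with triptolide. Slc17a9 had 75, then 158 and 38, then 4 and 0, and Ccdc84 135, then 243 and 83, then 5 and 2. All 3 had their highest value at 2 h of DRB and their lowest with triptolide, which the choice by likeness favours. By Pearson's correlation over the 5 columns the nearest were Cchcr1, Noa1 and Slc17a9, so 1 of 3 was shared. Jun, Jund and Fos had under 20 reads without drug and were not searched. For Fosl1, searched after its values were seen, the nearest were Casp2, 0610007P14Rik and Chac1, at 0.123, 0.146 and 0.158. Each was listed at 0 after 2 h of DRB, which the choice by likeness also favours. By Pearson's correlation the genes nearest to Fosl1 were Dpf1, Opa3 and Epc2, so none was shared. These had 5, 10 and 1 net reads after 2 h of DRB.

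The genes around AP-1 in its pathway were mostly lower after 2 h of DRB, as were 66.1% of all genes, with 2.20% higher. Counts of lower and higher genes in the 5 lists closest to it lay near these shares. Of 23 partners and related leucine-zipper factors, 15 exceeded 1 read per kb, and 12 were lower, 0 higher and 3 within the size rule, with a median log2 difference of -1.38 beside -1.27 over all genes. Atf4, the integrated stress response factor, had 38 net reads against 391, at 9.72% (6.77 to 13.6), and Mafg, a small Maf protein, 33 against 251, at 13.1% (8.86 to 18.9). Atf5 and Cebpg were at 7.14% and 9.09%. Of 26 upstream kinases, 12 exceeded the limit, and 9 were lower and 0 higher, with a median of -1.47. Mapk14, the p38 kinase, was at 7.94% (5.46 to 11.2), Map2k2, an ERK activator, at 15.6% and Map2k7, a JNK activator, at 21.3%.

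Of 13 factors that bind or help to induce AP-1 promoters, 10 exceeded the limit, and 7 were lower and 0 higher, with a median of -1.11. Elk4, a partner of serum response factor, had 2 net reads against 169, at 1.18% (0.142 to 4.34), Stat3, the transducer of leukemia inhibitory factor, 35 against 210, at 16.7% (11.3 to 23.9), and Tcf7l1 and Mef2d were at 9.72% and 15.7%. Of 13 turnover and coactivation genes, 12 had a row and 9 exceeded the limit, and 6 were lower and 0 higher, with a median of -1.27. Zfp36l1, which promotes decay of AU-rich RNAs, was at 16.9% (10.3 to 26.7) and Crebbp, a coactivator, at 10.7%, and Cops5, known as Jab1, was listed at 0 against 34 reads. Of 20 genes known as AP-1 targets in other cells 12 exceeded the limit, and 9 were lower and 0 higher, with a median of -1.49. Timp1, a protease inhibitor, had 1 read against 30, Hmox1, a haem-degrading enzyme, was at 14.1% (7.46 to 24.9), Ccnd1, cyclin D1, at 17.2% (11.9 to 24.3) and Ezr, a membrane-cytoskeleton linker, at 14.1% (10.7 to 18.4).

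Of 25 other immediate early genes, 20 exceeded the limit, and after 2 h of DRB 15 were lower, 2 higher and 3 within the size rule, beside 66.1% and 2.20% of all genes lower and higher, with a median of -1.98. Together the 25 kept 44.9% (41.1 to 49.1) of their net reads, beside 26.8% for all genes. The sum and the median differ in direction, because the median of -1.98 lay below the -1.27 of all genes. Of the 706 net reads left, Ier2 held 145 and Myc 73. Ctgf, a matricellular protein gene, was at 7.53% (3.68 to 13.9), Gadd45b had 1 read against 28, and Ier3 and Rhob were listed at 0 against 10 and 13 reads. Egr1, a zinc finger factor induced with Fos, had 34 reads against 14 after 2 h of DRB, a ratio of 2.43 (1.27 to 4.90), 14 after 5 h, and 0 and 2 with triptolide. Ier2 had 120 reads without drug, 145 and 1 with DRB, and 3 and 0 with triptolide, and Myc had 113, then 73 and 8, then 3 and 0. After 5 h of DRB the lower members were 11 of 15 partners, 12 of 12 kinases, 9 of 10 promoter factors, 9 of 9 turnover genes, 11 of 12 targets and 18 of 20 other immediate early genes, beside 85.5% of all genes. With triptolide they were 13, 12, 7, 9, 11 and 20 after 1 h and 13, 12, 8, 8, 11 and 19 after 2 h in the same order, beside 87.9% and 87.0% of all genes. No list member was higher by the size rule in these 3 comparisons, which share the undrugged column with each other and with 2 h of DRB.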

How the data were processed

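Labelled and unlabelled RNA of 20 samples in 10 groups of 2, grouped by the labels, is represented by 1 deposited column per condition. Per the submitters' processing notes, Bowtie and GRCm38/mm10 were used. The deposited signal is in reads per kb of gene, from which the authors subtracted background and set negative values to 0, per the file headers. The sources used here state neither how replicates were combined or columns scaled nor the depth of each library, and the labels name no batch.

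Each gene's values are multiples of 1000 divided by its length, so net reads were recovered for 17512 genes with signal: lengths matched a GENCODE M21 span exactly for 10266, a RefSeq span for 983, a multiple of the step within 20% of a span for 5830, and rested on the step alone for 433. Of 22556 identifiers 21800 were in GENCODE M21. Ratios carry exact (Clopper-Pearson) 95% intervals, shares exact binomial ones, and ratios of ratios conditional odds ratios. The size rule is 1 on log2(value + 1), among genes above 1 in at least 1 condition. List genes were named as the up to 4 with the largest difference at 2 h of DRB, and likeness as the 3 nearest genes; some genes that this rule names are not reported here. Alternatives were pseudocounts of 0.1 and 10, equal sums, medians or quantiles, other filters, reads per kb and leaving out the leading member. The members and lists were chosen with earlier results of these data known. Scripts in Python 3.11.15 with SciPy 1.17.1 were checked on simulated data.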

Additional observations from a re-analysis of the deposited data

Results flagged for a closer look

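Junb was flagged because its ratio to no drug lay above 1 after 2 h of DRB and below 1 in other drug columns, with counting intervals that exclude 1 on both sides. The ratio was 3.92 (2.48 to 6.41) after 2 h of DRB, beside 41.7% (17.8 to 90.4) after 5 h of DRB. It was 3.92 after 2 h of DRB beside 0 net reads against 24 after 2 h of triptolide. These differences were not tested over samples, because each condition has 1 column, and the comparisons share the undrugged column. On rescaled columns the 5 h value turned higher than without drug, by 1.51 to 2.37 log2 units.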

How the results depend on the processing

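No paired analysis was possible because the table holds 1 column per condition, and for the same reason no replicate could be left out in turn. Equal sums multiplied the drug columns by 3.74, 13.1, 16.4 and 19.9 and equal medians by 3.28, 7.16, 10.6 and 10.6. Equal sums assume the same total of net reads in every column. Equal medians assume the same median over 1589 genes above the limit that had signal in every column, so genes lost with a drug are left out. Over all genes the median log2 difference went from -1.27, -1.86, -1.98 and -1.92 to -0.28, -1.11, -1.47 and -1.14 with equal sums, -0.40, -1.29, -1.56 and -1.32 with equal medians and -0.12, -0.40, -0.56 and -0.43 with equal quantiles.

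Log2 differences changed sign on rescaling, and the values are given in the order equal sums, medians and quantiles, first for differences past the size rule as deposited. After 5 h of DRB they were 2.37, 1.51 and 2.15 for Junb and 1.86, 1.04 and 1.59 for Jund. After 1 h of triptolide they were 0.94, 0.44 and 1.02 for Jun, 1.38, 0.78 and 1.91 for Junb, and 0.094 with quantiles for Fosl1. After 2 h of triptolide they were 2.44, 1.56 and 2.26 for Jund, and 0.54 with sums and 0.51 with quantiles for Fosl1. With sums and quantiles, Jund was at 0.046 and 0.24 for 5 h against 2 h of DRB, and at -0.63 and -0.91 for DRB against triptolide at 2 h. Differences within the size rule also changed sign. After 2 h of DRB, they were 0.50, 0.36 and 0.40 for Jun, 0.31, 0.21 and 0.23 for Fosl2 and 0.45, 0.33 and 0.32 for Atf3. After 5 h of DRB, they were 0.0075 with sums and 0.29 with quantiles for Atf3 and 0.20 with quantiles for Fosl2. After 1 h of triptolide, Fosl2 was at 2.14, 1.61 and 1.70 and Atf3 at 0.18 with sums and 0.49 with quantiles, and after 2 h Atf3 was at 1.83, 1.09 and 1.23. For DRB against triptolide at 2 h, Atf3 was at -1.39, -0.76 and -0.91. A pseudocount cannot change a sign, and equal sums and medians only multiply the drug columns upward, so they could not turn a value that was higher with drug, such as Junb after 2 h or Fos after 5 h of DRB. Fosl1 after 2 h of DRB stayed lower, at -2.63, -2.69 and -1.53.

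Counts of lower members moved as follows. For 2 h of DRB, 1 became 3 with a pseudocount of 0.1 and 0 with 10. For 5 h of DRB, 4 became 0 (pseudocount 10), 1 (sums), 2 (medians), 0 (quantiles) and 2 (at least 20 net reads). For 1 h of triptolide, 4 became 0, 1, 1, 1 and 2 in that order, and for 2 h 1, 2, 2, 1 and 2. Over all genes the number lower fell on scaling too, in the order sums, medians and quantiles. After 5 h of DRB, 7503 became 4682, 5272 and 2300. After triptolide, 7715 became 5590, 5866 and 2827 at 1 h, and 7636 became 4727, 5242 and 2453 at 2 h. For 5 h against 2 h of DRB, 2 became 3 with a pseudocount of 0.1, and 1 with a pseudocount of 10, with quantiles and with 20 net reads. For triptolide 2 h against 1 h, 1 became 2 with a pseudocount of 0.1 and on each scaling, and 0 with a pseudocount of 10. For DRB against triptolide at 2 h, 0 became 2 with a pseudocount of 0.1 and on each scaling. Over all genes, in these last comparisons, 266 became 1504, 1409 and 1292, and 91 became 1731, 969 and 1225 on scaling.

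Counts of higher members moved too. For 2 h of DRB, 1 became 2 on each scaling, while 193 of 8773 genes became 1096, 912 and 637 (sums, medians and quantiles). For 5 h of DRB, 1 became 3 on each scaling and 0 with a pseudocount of 10 or at least 20 net reads. Over all genes, 90 became 1310, 705 and 1110 on scaling. For 1 h of triptolide, 0 became 2, 1 and 3 by scaling, and for 2 h it became 2 on each. Over all genes, 69 became 1055, 700 and 1161, and 76 became 1452, 771 and 1176. For 5 h against 2 h of DRB, 1 became 2 with a pseudocount of 0.1 and on each scaling, and 0 with a pseudocount of 10 or 20 net reads. Over all genes, 99 became 1331, 660 and 925 on scaling. For triptolide 2 h against 1 h, 1 became 0 with a pseudocount of 10 or 20 net reads, and for DRB against triptolide 2 became 1 with either and 3 with a pseudocount of 0.1. Dropping the filter changed 0 of the 14 counts. This was fixed in advance, because members below 1 read per kb cannot differ by 1 log2 unit. Over all genes, the number lower after 2 h of DRB ranged from 644 (pseudocount 10) to 7065 (pseudocount 0.1) and the number higher from 25 to 1096 (equal sums). After 5 h of DRB they ranged from 1314 to 8104 and from 1 to 1310, after 1 h of triptolide from 1381 to 8256 and from 1 to 1161, and after 2 h from 1362 to 8270 and from 4 to 1452. For 5 h against 2 h of DRB they ranged from 249 to 5678 and from 1 to 1331, for triptolide 2 h against 1 h from 5 to 1504 and from 3 to 2567, and for DRB against triptolide from 3 to 1731 and from 312 to 6028.

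In reads per kb, Junb's percent of the AP-1 makeup was 42.2, 86.8, 53.6 and 53.3 in the first 4 columns, and the Jun family's 67.3, 98.5, 70.8, 61.0 and 44.8. Without the member with most reads the Jun family held 60.3% without drug (without Fosl1), 58.8% and 25% with 2 h and 5 h of DRB (without Junb), and 41.7% and 31.3% with 1 h and 2 h of triptolide (without Fosl2). Depth limits most members: after triptolide no member exceeded 17 net reads, and values of 1 to 3 reads cannot be told from each other.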
